A study of Mus musculus with 6 samples.

Results

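The genes described here carry glucose from its uptake to pyruvate and lactate, set how much pyruvate enters the mitochondria, and divert glucose phosphate into the pentose phosphate pathway. They were chosen by name, 44 gene symbols from the transporters to transaldolase, of which *Pkm* and *Pkm2* are the same gene, so that 43 genes remained. Each gene was read by its brightest probe (highest mean deposited signal) among those above background, that is with detection p-values under 0.01, on 3 or more of the 6 arrays. In all, 29 of the 43 genes had such a probe, out of 8343 genes measured in this way. Of the other 14 genes, *Slc16a1*, *Slc16a3*, *Hk2*, *Gpi1*, *Pfkfb1*, *Pfkfb3*, *Eno1*, *Pklr*, *Pdk2*, *Pdhx*, *Pcx*, *G6pdx* and *Pgd* had no probe named in the annotation used here, which covers only the probes with the authors' processed values. *Pdp1*, which encodes a pyruvate dehydrogenase phosphatase, had 1 named probe, above background on 1 array, the second *Prdm14*-null array, and was not tested.

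The samples were mouse ES cells of C57BL/6 background cultured in 2i, a medium with inhibitors of MEK and glycogen synthase kinase-3. There were 3 samples of *Prdm14*-null cells (labelled as knockout) and 3 of wild-type control cells, with 1 Illumina Mouse WG-6 array per sample. The null cells stem from embryos of heterozygous crosses with a EUCOMM allele. The replicates of a genotype came from consecutive passages and received no treatment beyond 2i. Separate lines are not mentioned, so p-values cover only the spread between these samples, and line and genotype cannot be told apart. The Y-linked *Eif2s3y* was above background on 3 null and 0 wild-type arrays, but the Y-linked *Uty* on 3 and 3. Any difference in sex chromosomes between the cells cannot be told apart from genotype either. Median signals were 63.5 to 74.8 on the *Prdm14*-null and 56.8 to 80.6 on the wild-type arrays. Arrays correlated at 0.990 to 0.994 within a genotype and at 0.958 to 0.962 between genotypes.

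The *Prdm14* probe was above background on 0 of 3 null and 3 of 3 wild-type arrays, at least 6.62-fold lower (limma, adjusted p = 2.46e-07), and its place relative to the deletion is not known here. All 10 listed ES cell markers were measured, among them *Pou5f1* and *Sox2* (log2 fold changes of 0.60 and 0.54, both past the threshold), *Nanog* (-0.07) and *Fbxo15* (-0.45, adjusted p = 0.0165). *Utf1*, a marker of undifferentiated ES cells, changed most of the 10, by 2.21, or 4.63-fold (adjusted p = 0.000143). The summed level of the 10, which weighs bright genes most, was 55005 to 58757 in null and 55863 to 58003 in wild-type cells. Few markers of other cell types could be read, since most had no named probe here. Of 10 fibroblast genes 2 were measured, *Thy1* and *Fn1*, with a summed level of 1068 to 1251 in null and 1099 to 1341 in wild-type cells. *Thy1* was at least 2.51-fold higher in null cells. Of 10 extra-embryonic endoderm genes 2 were measured, at 141 to 352 in null and 117 to 163 in wild-type cells. Of 8 trophectoderm genes 4 were measured, at 849 to 958 in null and 724 to 832 in wild-type cells, of which *Tfap2a* was higher and *Krt7* at least 2.33-fold lower in null cells. Of 7 neuroectoderm genes 2 were measured, at 179 to 260 in null and 241 to 308 in wild-type cells, and of 8 mesoderm genes none. The part of these markers in the results below was not tested. In such bulk samples, fewer cells that express a gene and less RNA per cell cannot be told apart.

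Glycolysis splits glucose into pyruvate in the cytosol. Pyruvate is then either reduced to lactate by lactate dehydrogenase or oxidised to acetyl-CoA by the pyruvate dehydrogenase complex, which the PDK kinases switch off and the PDP phosphatases switch on. Many steps are served by several isozymes from separate genes, and pluripotent cells are known for a high glycolytic flux, which rises further as ES cells move towards the primed state. Hypoxia-inducible factor (HIF) is a textbook activator of many of these genes, *Ldha* and *Pdk1* included.

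The stretches of 250 bases upstream of the annotated start are shown for 4 genes whose changes carry the account below, *Pdk1* and *Pdk4*, kinases of the same complex that moved in opposite directions, and *Ldha* and *Pfkl*, which rose. They are RefSeq sequences of GRCm38.p6, 5′ to 3′ along the gene, each the most upstream start listed for its gene. Capitals mark the letters at the core of a HIF response element, ACGTG or GCGTG, on either strand (CACGT or CACGC on the reverse).
Pdk1, chr2:71872974-71873223, plus strand: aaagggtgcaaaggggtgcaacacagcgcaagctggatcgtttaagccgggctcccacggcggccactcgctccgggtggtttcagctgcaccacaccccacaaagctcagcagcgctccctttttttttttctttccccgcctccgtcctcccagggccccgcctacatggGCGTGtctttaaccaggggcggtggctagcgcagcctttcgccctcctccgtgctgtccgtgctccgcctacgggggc
Pdk4, chr6:5496279-5496528, minus strand: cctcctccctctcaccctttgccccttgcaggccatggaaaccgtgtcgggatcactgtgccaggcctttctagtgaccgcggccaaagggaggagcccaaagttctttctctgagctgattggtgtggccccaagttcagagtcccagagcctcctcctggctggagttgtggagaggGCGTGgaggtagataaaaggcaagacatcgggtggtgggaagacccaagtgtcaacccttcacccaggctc
Ldha, chr7:46845554-46845803, plus strand: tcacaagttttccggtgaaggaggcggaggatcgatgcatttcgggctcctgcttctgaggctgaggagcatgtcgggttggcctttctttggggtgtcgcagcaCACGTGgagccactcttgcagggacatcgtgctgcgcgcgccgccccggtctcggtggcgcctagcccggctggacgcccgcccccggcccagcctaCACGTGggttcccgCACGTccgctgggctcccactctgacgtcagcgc
Pfkl, chr10:78009808-78010057, minus strand: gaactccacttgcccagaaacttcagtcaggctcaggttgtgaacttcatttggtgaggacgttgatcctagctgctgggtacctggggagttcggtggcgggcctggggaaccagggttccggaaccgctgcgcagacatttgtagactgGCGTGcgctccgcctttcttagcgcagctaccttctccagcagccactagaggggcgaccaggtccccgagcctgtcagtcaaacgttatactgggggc
The *Ldha* stretch held 5 matches to ACGTG over both strands, since each CACGTG (the E-box letters) counts on either strand. *Pdk1*, *Pdk4* and *Pfkl* held 1 match to GCGTG each and none to ACGTG, so that the pair of kinases did not differ in this count. Upstream stretches were listed for 41 of the 43 genes, and 34 of these (82.9%) held either core at 1 or more of their starts, against 41.5% of the 27025 genes with a listed stretch of the same length. ACGTG was found for 16 of 41 genes (39.0%, against 18.5% of all genes), GCGTG for 27 (65.9%, against 30.9%) and CACGTG, which overlaps ACGTG, for 7 (17.1%, against 6.86%). Several genes have more than 1 listed start. Counted by start, either core was found at 44 of 63 (69.8%) for these genes, against 38.6% of all 32851. Both cores contain CG, and the 63 stretches of these genes had a median GC content of 59.2%. That of all stretches was not computed, so the part of base composition in these shares was not tested. These are matches of letters and do not show binding.

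Changes in this group were split between rises and falls, and the kinase genes *Pdk1* and *Pdk4* passed in opposite directions. Of the 29 measured genes, *Pfkl*, *Pgam2*, *Ldha* and *Pdk1* were higher and *Hk1*, *Pfkfb2*, *Aldoc*, *Eno3* and *Pdk4* lower in *Prdm14*-null cells at an adjusted p under 0.01 (limma, adjusted over all 14436 tested probes), and 20 did not pass. Of all measured genes 15.1% passed, 6.72% with a rise and 8.41% with a fall. The median log2 fold change was -0.07 over the 29 genes and 0.02 over all genes, and the median size of the change without its sign was 0.27 and 0.21. Counted by probe, 5 of 41 rose and 5 fell, against 6.19% and 7.56% of all tested probes (13.8% in all). The arrays of the genotypes did not overlap for 17 of the 29 genes (7 higher and 10 lower), as for 45.1% of all genes (23.6% higher and 21.5% lower). With every probe tested instead of only those above background, 2 rises and 2 falls remained past the threshold, those of *Ldha*, *Pdk1*, *Eno3* and *Pdk4*. Leaving out 1 sample gave 2 to 4 rises and 2 to 5 falls. Without the first null sample there were 2 rises and 3 falls, without the second wild-type sample 3 falls and without the third wild-type sample 2 falls.

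**Figure D1:**
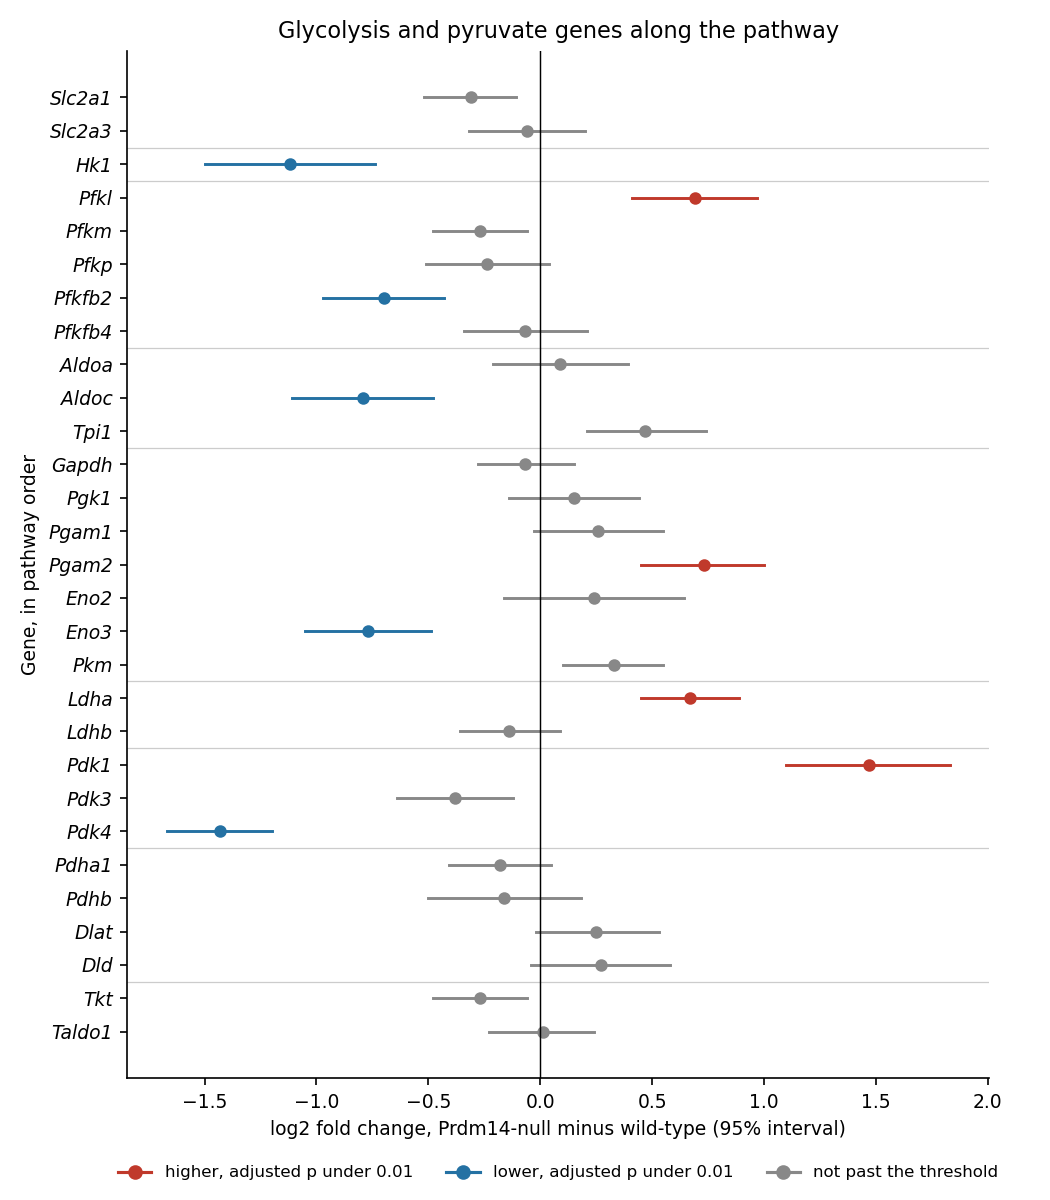
Log2 fold change, *Prdm14*-null minus wild-type, of the 29 measured genes in pathway order from glucose transporters (top) to the pentose phosphate pathway (bottom), with 95% intervals of the moderated fit (3 arrays per genotype). *Pdk1* at 1.47 and *Pdk4* at -1.43 stand at the ends of the range, and grey points did not pass the threshold.

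Of the transporters, the genes of GLUT1 (*Slc2a1*) and of the high-affinity GLUT3 (*Slc2a3*), both for glucose uptake, were measured. *Slc2a1* had normalized log2 signals of 11.85, 11.73 and 11.84 in null samples, against 12.15, 12.09 and 12.11 in wild-type samples. Every null array lay below every wild-type array, yet the change of -0.31 with a standard error of 0.09 missed the threshold (adjusted p = 0.0350). It passed with the authors' processed values (adjusted p = 0.0042) and with a mean-variance trend in the fit (adjusted p = 0.00404). *Slc2a3* gave -0.06 with overlapping arrays (95% interval -0.32 to 0.20).

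The first step, phosphorylation of glucose, was read by *Hk1*, which encodes the widely expressed hexokinase bound to mitochondria. *Hk1* had log2 signals of 6.53, 6.21 and 6.04 in null cells, against 7.09, 7.41 and 7.64 in wild-type cells. With no overlap, the log2 fold change was -1.12 (standard error 0.17, adjusted p = 0.00154), or 2.17-fold lower. All 6 arrays were above background, but the deposited signals were low, 103 to 154 in null and 132 to 309 in wild-type cells, and the log2 fold change was -0.52 with the authors' processed values and -0.72 without background correction. Its second, dimmer probe, above background on 1 null and 3 wild-type arrays, gave -0.29 (adjusted p = 0.185), and the mean of both probes -0.71 (adjusted p = 0.00702).

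At the committed step of glycolysis, the 3 phosphofructokinase genes did not move together. *Pfkl*, the liver-type subunit, had log2 signals of 11.40, 11.11 and 11.46 in null cells, against 10.62, 10.76 and 10.52 in wild-type cells. All null arrays were thus above all wild-type arrays, and *Pfkl* rose by 0.69 (standard error 0.12, adjusted p = 0.00381), or 1.61-fold. The call was lost in 4 of 6 fits with 1 sample left out, without null sample 1 or 3 (adjusted p = 0.0155 and 0.0149) and without wild-type sample 1 or 3 (adjusted p = 0.0128 and 0.0189). A second, dimmer probe of *Pfkl*, above background on 3 null and 0 wild-type arrays, gave 0.27 (adjusted p = 0.130). *Pfkm*, the muscle-type subunit, did not overlap on any of its 3 probes, yet none passed. The brightest gave -0.27 (adjusted p = 0.0614), the others -0.43 (adjusted p = 0.0118) and -0.47 (adjusted p = 0.0126). The gene sits on chromosome 15, whose 336 measured genes had a median of -0.18, and relative to that median it was at -0.10. *Pfkp*, the platelet-type subunit, gave -0.24 and overlapped.

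The PFKFB enzymes make and break fructose 2,6-bisphosphate, the allosteric activator of phosphofructokinase. *Pfkfb2* had log2 signals of 6.99, 7.18 and 6.79 in null cells, against 7.61, 7.77 and 7.68 in wild-type cells. It fell by 0.70 (standard error 0.12, adjusted p = 0.00311), or 1.62-fold, without overlap. With the authors' processed values its log2 fold change was -0.39, and its call was lost in 4 of 6 fits with 1 sample left out, without null sample 1 or 3 (adjusted p = 0.0111 and 0.01) and without wild-type sample 2 or 3 (adjusted p = 0.0145 and 0.0137). *Pfkfb4* gave -0.07 with overlapping arrays (95% interval -0.34 to 0.21).

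Aldolase splits the sugar into a pair of triose phosphates, which triose phosphate isomerase interconverts. *Aldoa*, the ubiquitous aldolase, gave 0.09 with overlapping arrays (95% interval -0.21 to 0.39). *Aldoc*, the brain-type aldolase, had log2 signals of 7.96, 7.94 and 8.25 in null cells, against 8.62, 9.05 and 8.86 in wild-type cells. Here the genotypes were apart, and *Aldoc* fell by 0.79 (standard error 0.14, adjusted p = 0.00331), or 1.73-fold. It lies on chromosome 11, whose 724 measured genes had a median of -0.14, with 14.2% lower and 1.93% higher. A chromosome-wide difference between the cells cannot be told apart from genotype. Relative to that median *Aldoc* stayed past the threshold (-0.65, adjusted p = 0.00917). Its call was lost without null sample 1 or 2 (adjusted p = 0.0141 and 0.0175) and without wild-type sample 2 or 3 (adjusted p = 0.0129 and 0.0152). *Tpi1* had log2 signals of 12.81, 12.69 and 12.94 in null cells, against 12.49, 12.34 and 12.19 in wild-type cells. The groups did not overlap, but its brightest probe, at 0.47 (standard error 0.12), missed the threshold (adjusted p = 0.0166). A dimmer probe passed at 0.55 (adjusted p = 0.00726) and the dimmest did not, at 0.51 (adjusted p = 0.0130). The mean of the 3 probes passed (0.51, adjusted p = 0.00582).

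In the lower part of the pathway, where ATP is regained, the most widely used housekeeping gene did not move detectably. *Gapdh* had log2 signals of 13.57, 13.68 and 13.56 in null cells, against 13.72, 13.71 and 13.59 in wild-type cells, a log2 fold change of -0.07 (95% interval -0.28 to 0.15). *Pgk1*, for phosphoglycerate kinase, gave 0.15 on its brighter and 0.43 on its dimmer probe (adjusted p = 0.430 and 0.0173). *Pgam1*, the general phosphoglycerate mutase, gave 0.26 (adjusted p = 0.172), with no overlap, and 0.06 on a second probe. *Pgam2*, the muscle-type mutase, had log2 signals of 6.68, 6.49 and 6.49 in null cells, against 5.96, 5.92 and 5.61 in wild-type cells. Although dim, it was above background on all 6 arrays and did not overlap, and it rose by 0.73 (standard error 0.12, adjusted p = 0.00276), or 1.65-fold. With the authors' processed values its log2 fold change was 0.26 and missed the threshold (adjusted p = 0.0125), without background correction it was 0.39, and its call was lost without null sample 1 or 2 (adjusted p = 0.0113 and 0.0105). *Pgam2* also lies on chromosome 11, against whose median it was at 0.87.

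Enolase forms phosphoenolpyruvate and pyruvate kinase turns it into pyruvate. *Eno3*, the muscle-type enolase, had log2 signals of 6.14, 6.47 and 6.16 in null cells, against 7.11, 6.89 and 7.09 in wild-type cells. It fell by 0.77 (standard error 0.12, adjusted p = 0.00199), or 1.71-fold, with no overlap. Relative to the other genes of chromosome 11 the change was -0.63 (adjusted p = 0.00584), with the authors' processed values it was -0.33, without background correction -0.47, and its call was lost when wild-type sample 3 was left out (adjusted p = 0.0110). *Eno2*, the neuronal enolase, was above background on 2 null and 1 wild-type arrays and gave 0.24 with overlap. *Pkm*, which encodes the pyruvate kinase of ES cells, had log2 signals of 13.82, 13.59 and 13.73 in null cells, against 13.34, 13.42 and 13.40 in wild-type cells. The groups did not overlap, but the log2 fold change of 0.33 (standard error 0.10) missed the threshold (adjusted p = 0.0414). It passed with the authors' processed values (adjusted p = 0.00643). Whether the single probe tells apart the splice forms M1 and M2 was not checked.

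*Ldha*, whose product turns pyruvate into lactate, was higher in null cells under every setting tried. Its log2 signals were 13.43, 13.30 and 13.52 in null cells, against 12.79, 12.76 and 12.69 in wild-type cells. The lowest null array lay well above the highest wild-type array, and *Ldha* rose by 0.67 (standard error 0.10, adjusted p = 0.00133), or 1.59-fold. Over the 19 alternatives its log2 fold change ran from 0.61 to 0.73, with an adjusted p of at most 0.00792. The deposited signals were 10047 to 11999 in null and 5405 to 8045 in wild-type cells. *Ldhb*, whose product favours the reverse reaction, gave -0.14 with overlap on a dim probe placed on the cDNA AK084659 (95% interval -0.36 to 0.09).

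The regulators of the pyruvate dehydrogenase complex changed in opposite directions, with the largest log2 fold changes of the 29 genes in the background-corrected values. With the authors' processed values *Pdk1*, at 1.00, still led, whereas *Pdk4*, at -0.60, came after *Ldha* at 0.69 and *Pfkl* at 0.68. *Pdk1*, a kinase that inactivates the complex, had log2 signals of 8.69, 8.56 and 9.14 in null cells, against 7.17, 7.50 and 7.31 in wild-type cells. No null array came within 1 log2 unit of a wild-type array, and *Pdk1* rose by 1.47 (standard error 0.16, adjusted p = 0.000246), or 2.77-fold, rank 69 from the top among all 8343 genes. *Pdk4*, the kinase known to be raised by fasting and fatty acids in muscle and liver, had log2 signals of 5.68, 5.86 and 5.87 in null cells, against 7.25, 7.34 and 7.12 in wild-type cells. It was lower on each null array than on any wild-type array and fell by 1.43 (standard error 0.11, adjusted p = 2.81e-05), or 2.70-fold. Both calls held under all 19 alternatives, in which the log2 fold change ran from 1.00 to 1.59 for *Pdk1* and from -1.49 to -0.60 for *Pdk4*. Without background correction *Pdk4* was at -0.85. *Pdk4* was near background in null cells, with deposited signals of 96.6 to 107, against 142 to 232 in wild-type cells. *Pdk3* had log2 signals of 8.75, 8.52 and 8.54 in null cells, against 8.87, 8.94 and 9.14 in wild-type cells, a log2 fold change of -0.38 (adjusted p = 0.0395) with no overlap.

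**Figure D2:**
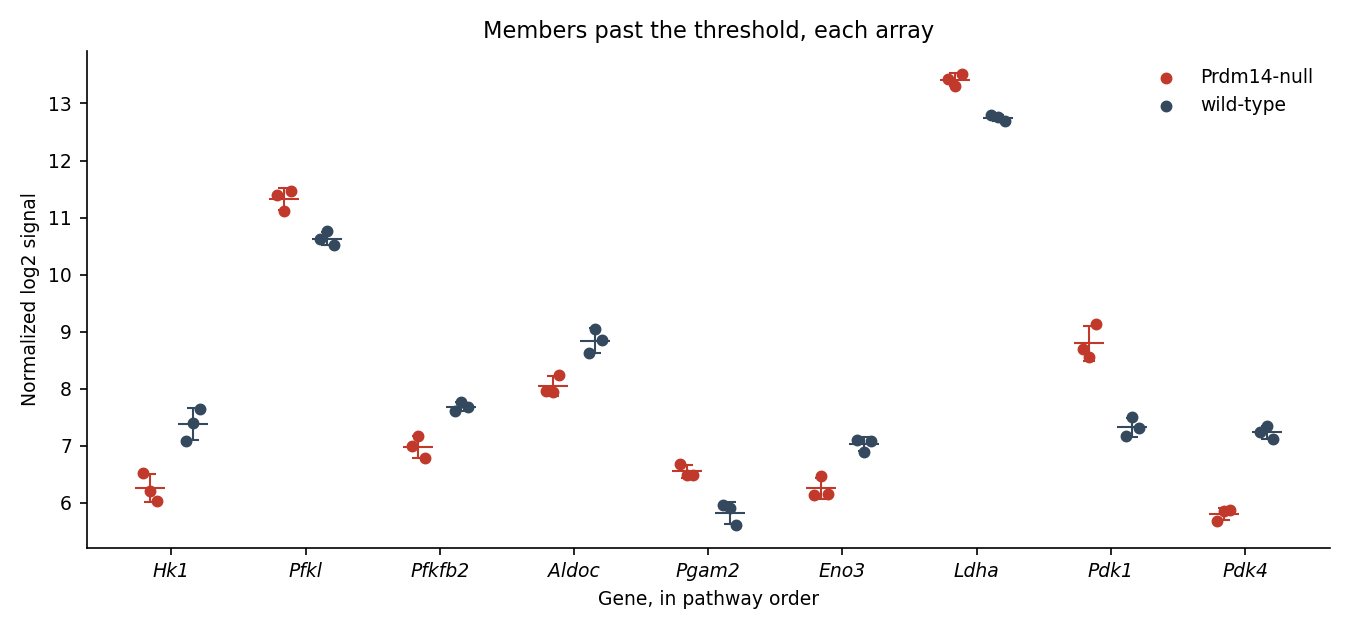
Normalized log2 signal on each array (points) of the 9 genes that passed the threshold, in pathway order, with mean and SD (bars, 3 arrays per genotype). In each of the 9 genes the *Prdm14*-null arrays do not overlap the wild-type arrays, with *Pfkl*, *Pgam2*, *Ldha* and *Pdk1* higher in null cells and the other 5 lower.

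No measured subunit of the complex itself passed. *Pdha1*, for the subunit that the kinases phosphorylate, had log2 signals of 11.78, 11.82 and 11.84 in null cells, against 11.92, 11.91 and 12.14 in wild-type cells. Its log2 fold change of -0.18 did not pass (95% interval -0.41 to 0.05). *Pdhb* gave -0.16, with -0.17 and -0.31 on its other probes, *Dlat*, for the acetyltransferase core, 0.25 and *Dld*, for the shared dihydrolipoamide dehydrogenase, 0.27, none of which passed (adjusted p = 0.167 to 0.479 on the brightest probes). *Pdha1*, *Pdk3* and *Pgk1* are X-linked. The 270 measured X-linked genes had a median log2 fold change of 0.12, and the Y-linked *Eif2s3y* was above background on 3 null and 0 wild-type arrays, at least 7.46-fold higher in null cells. The other measured Y-linked gene, *Uty*, was above background on all 6 arrays and gave 0.31 with overlap (adjusted p = 0.132). Relative to the X median the changes were -0.30 for *Pdha1*, -0.50 for *Pdk3* (adjusted p = 0.0127) and 0.03 for *Pgk1*.

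Of the non-oxidative pentose phosphate enzymes, which link the sugars of nucleotide synthesis to glycolysis, transketolase (*Tkt*) had log2 signals of 11.64, 11.54 and 11.59 in null cells, against 11.90, 11.89 and 11.79 in wild-type cells. The groups were apart, but the log2 fold change of -0.27 missed the threshold (adjusted p = 0.0626), and its second, dimmer probe gave 0.02. Transaldolase (*Taldo1*) gave 0.01 with overlapping arrays (95% interval -0.23 to 0.24).

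To compare genes of the same step without comparing the brightness of different probes, the log2 difference between them was taken on each array, and the null arrays were set against the wild-type arrays (exact two-sided permutation test over the 6 samples, whose smallest possible p is 0.1, so that no pair could reach 0.05). Of 21 listed pairs, 11 had both genes measured. The arrays of the genotypes did not overlap in 8 of 11 pairs, each with an exact p = 0.1. The pairs share *Pfkl* and *Pdk1*, and single genes alone did not overlap in 45.1% of cases, so nothing is read from this count. *Pdk1* minus *Pdk4*, relative to the wild-type mean, was 2.92, 2.61 and 3.18 on the null arrays, against -0.17, 0.07 and 0.10 on the wild-type arrays. The log2 difference between the genotypes was thus 2.90 (1.60 with the authors' processed values), and it was 1.85 for *Pdk1* minus *Pdk3*. *Pfkl* gained on both other phosphofructokinase genes, by 0.96 on *Pfkm* and 0.93 on *Pfkp*, whereas *Pfkm* and *Pfkp* overlapped (-0.03, exact p = 0.7). The gain on *Pfkm* was 0.73 with chromosome medians removed, and that on *Pfkp* was 0.63 with the mean of a gene's probes. *Ldha* minus *Ldhb* was 0.82, 0.74 and 0.86 on the null arrays, against 0.15, -0.10 and -0.06 on the wild-type arrays, a difference of 0.81. Here *Ldhb* was read by a single dim probe, with a mean deposited signal of 114. For *Aldoa* minus *Aldoc* the difference was 0.88, and 0.68 both with chromosome medians removed and with the authors' processed values. It was -0.25 for *Slc2a1* minus *Slc2a3*, a pair barely apart, with the third null and the third wild-type array both at -0.08. *Eno2* minus *Eno3* gave 1.01, 0.41 with the authors' processed values and 0.58 without background correction, but *Eno2* was above background on only 2 null and 1 wild-type arrays. *Pgam1* minus *Pgam2* (-0.47, exact p = 0.2, and -0.02 with the authors' processed values) and *Pdha1* minus *Pdhb* (-0.02, exact p = 0.8) overlapped.

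**Figure D3:**
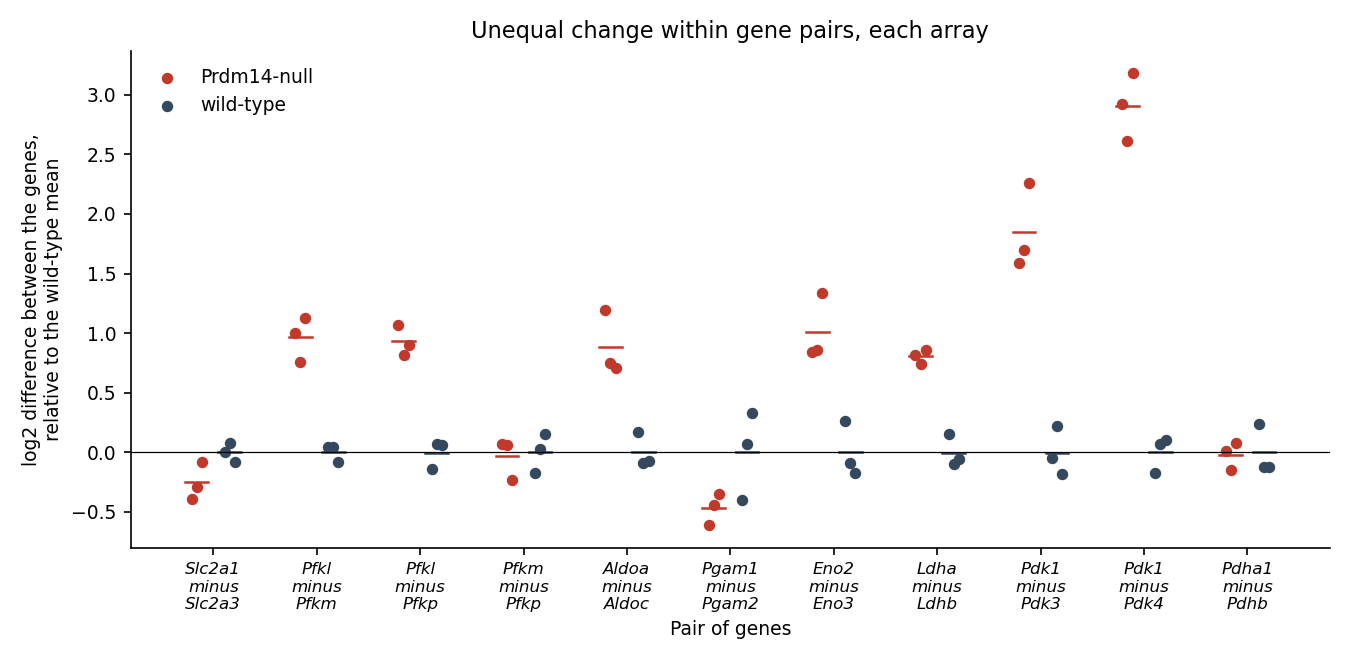
Log2 difference between 2 genes of the same step on each array, minus the mean of the wild-type arrays (points, with the mean of each genotype as a bar, 3 arrays each). The *Prdm14*-null arrays lie between 2.61 and 3.18 for *Pdk1* minus *Pdk4* and overlap the wild-type arrays in 3 of 11 pairs.

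Genes around the pathway were taken from further lists. Of 11 genes that handle pyruvate or load the dehydrogenase complex, 8 were measured and 3 were lower in null cells, with none higher and a median of -0.12. Of all measured genes 8.41% were lower and 6.72% higher. *Pdp2*, a phosphatase that reactivates the pyruvate dehydrogenase complex, had log2 signals of 10.74, 10.61 and 10.70 in null cells, against 11.60, 11.86 and 11.81 in wild-type cells. It fell by 1.08 (standard error 0.11, adjusted p = 0.000136), or 2.11-fold, its other probes gave -1.20 and -1.24, and the call held under all 19 alternatives, the authors' processed values included (-1.07). *Me1*, cytosolic malic enzyme, fell by 0.89 (adjusted p = 0.00275) and *Gpt2*, a mitochondrial alanine transaminase, by 0.92 (adjusted p = 0.00496). Both are less secure, since *Me1* lost its call in 3 and *Gpt2* in 5 of 6 fits with 1 sample left out (adjusted p up to 0.0118 and 0.0230), and *Me1* gave -0.41 with the authors' processed values. The malic enzyme *Me2* gave 0.07, and *Pdpr*, the regulatory subunit of the phosphatase, 0.03.

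Of 37 further genes of glycolysis, gluconeogenesis and sugar transport, 11 were measured, with a median of -0.14, and only *Ldhc* passed. This testis-type lactate dehydrogenase gene, a neighbour and close relative of *Ldha*, had log2 signals of 7.81, 7.51 and 7.67 in null cells, against 6.65, 6.95 and 6.85 in wild-type cells. The log2 fold change was 0.85 (standard error 0.12, adjusted p = 0.00106) with no overlap, 0.68 and 0.76 on its other probes and 0.46 with the authors' processed values. Whether its probes share signal with *Ldha* was not tested. Of 9 further pentose phosphate genes 6 were measured, and ribokinase (*Rbks*) rose by 0.65 (adjusted p = 0.00277, and 0.28 with the authors' processed values), a call lost in 3 of 6 fits with 1 sample left out (adjusted p up to 0.0132). The ribose phosphate isomerase gene *Rpia* gave -0.55 (adjusted p = 0.0118).

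Downstream of pyruvate, none of 17 measured genes listed for the tricarboxylic acid cycle passed (limma, 0 of 17, with 2 at an unadjusted p under 0.05). Their median was -0.01. The log2 fold changes ran from -0.31 for *Mdh1*, cytosolic malate dehydrogenase, to 0.23 for *Idh1*, cytosolic isocitrate dehydrogenase. These were also the 2 at an unadjusted p under 0.05, and as cytosolic enzymes they lie outside the mitochondrial cycle. Citrate synthase (*Cs*) gave -0.14 and *Ogdh*, of the oxoglutarate dehydrogenase complex, -0.13.

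The serine and one-carbon branch, which leaves glycolysis at 3-phosphoglycerate, was lower in part. Of 9 listed genes 7 were measured, of which 3 were lower and none higher, against 8.41% lower and 6.72% higher of all genes. The median was -0.60 against 0.02 for all genes. *Gldc*, glycine decarboxylase of the mitochondrial glycine cleavage system, had log2 signals of 9.76, 10.34 and 10.52 in null cells, against 12.41, 11.90 and 12.14 in wild-type cells. It fell by 1.94 (standard error 0.20, adjusted p = 0.000187), or 3.84-fold, and by 2.21 on its second probe, and its call held under all 19 alternatives. *Shmt1*, cytosolic serine hydroxymethyltransferase on chromosome 11, fell by 0.73 (adjusted p = 0.00224; second probe -0.45, adjusted p = 0.0304). *Mthfd2*, a mitochondrial folate dehydrogenase, fell by 0.61 (adjusted p = 0.00406), a call lost in 4 of 6 fits with 1 sample left out (adjusted p up to 0.0200). *Psat1* and *Shmt2* gave -0.60 and -0.52 and did not pass (adjusted p = 0.0106 and 0.0130), and *Phgdh*, the entry enzyme of serine synthesis, gave -0.07.

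**Figure D4:**
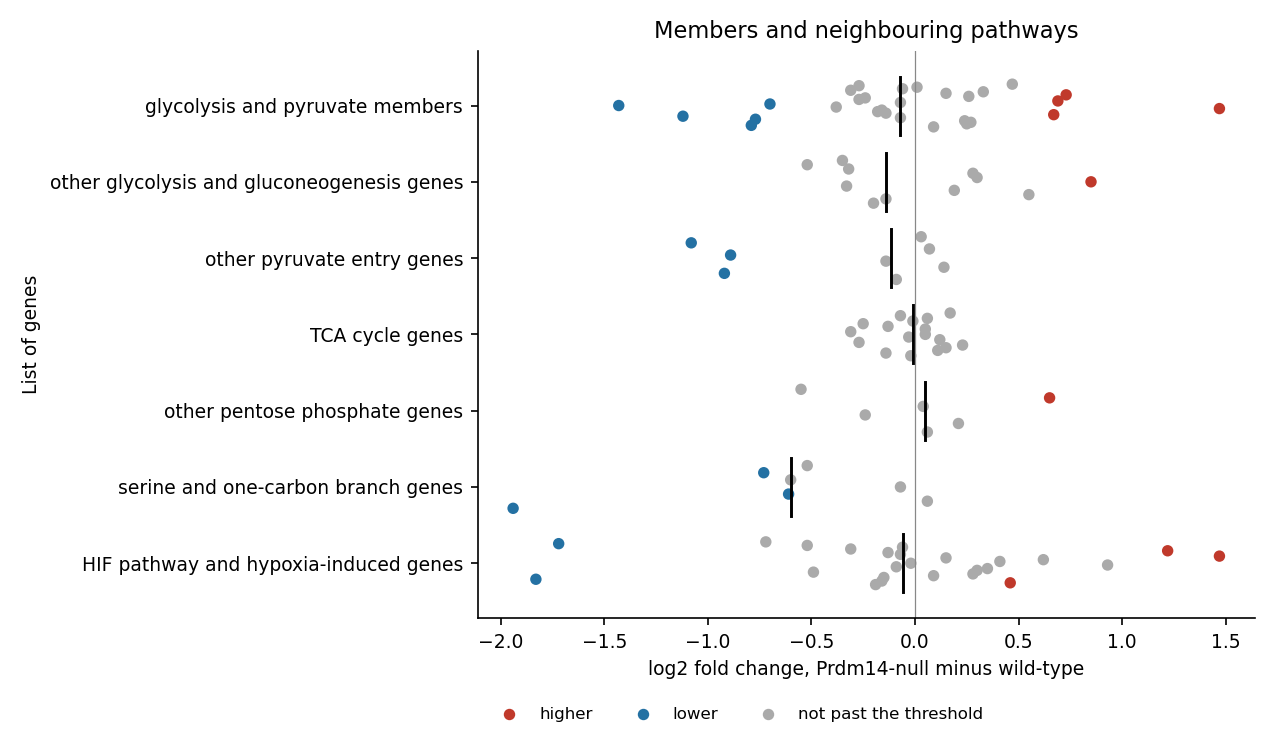
Log2 fold changes, *Prdm14*-null minus wild-type, of single genes (points) in the 29 glycolysis and pyruvate genes and 6 neighbouring lists, with the list's median as a vertical bar. The serine and one-carbon list has its median at -0.60, and no gene listed for the tricarboxylic acid cycle passed the threshold.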

How the data were processed

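Signal intensities were deposited without normalization for 45281 probes per array, and each has a deposited detection p-value against negative control beads. The authors' processed values, on a scale close to log2, cover 15961 probes with a median of 8.18 on every array. For these the submitters name lumi, with settings not given in the sources used here. They were used as an alternative.

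The intensities were background-corrected in limma 3.58.1 (R 4.3.3) by neqc's normal-exponential model, with control beads inferred through the detection p-values and an offset of 16, then quantile-normalized as log2 values. The 14436 probes above background on 3 or more arrays were fitted with genotype as the only term (lmFit, eBayes). P-values were adjusted over all of them by Benjamini-Hochberg, at the methods' threshold of 0.01. The fit was tested on simulated data. It called 26% of 50 probes given a log2 fold change of 0.5, and 100% of 50 probes given 1. Of 14236 unchanged probes it called 1. In the real data 1986 of 14436 probes passed, far more than were changed in the simulation, so these shares need not hold for the real fit. Genes that did not pass may still differ by 0.5 or more. The intervals of the 20 glycolysis and pyruvate genes that did not pass reached -0.64 and 0.74. In other lists, *Dab2* at 1.10 and *Hif3a* at 0.93 did not pass. If no array of a genotype exceeded background, the fold is given as "at least", the brighter genotype's mean against, per dim array, the higher of the lowest detected signal and the probe's own. Summed levels are sums of unlogged normalized signals. Probes carry the symbols of the platform annotation, brought up to date by RefSeq gene identifier.

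Every member was named, and of other lists at most 4 passing genes by size of change. Non-passing genes of other lists were named after their values were seen. Members, lists and tests were chosen with earlier results of these data known. Alternatives covered background, offset, normalization, processed values, probe filter, threshold, variance model, array weights, replicate block, mean over a gene's probes, chromosome medians and each sample left out. The number of arrays limits the precision.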

Additional observations from a re-analysis of the deposited data

How the results depend on the processing

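The alternatives were recomputed for the counts, the 29 glycolysis and pyruvate genes, the 11 gene pairs and the 12 named genes of other pathways that passed. They were not recomputed for *Prdm14*, cell type markers, the Y-linked genes or non-passing genes of other lists. None turned the direction of a recomputed gene that passed. *Ldha*, *Pdk1* and *Pdk4* passed under each of 19 alternatives. Without a filter on dim probes, 2 rises and 2 falls among the glycolysis and pyruvate genes passed. With 1 sample left out, 2 to 4 rises and 2 to 5 falls passed, and over all probes 475 to 699 were higher and 713 to 937 lower, against 894 and 1092 with all samples (475 and 713 without the second null sample, 562 higher without wild-type sample 2 and 556 without wild-type sample 3). At an adjusted p under 0.05, 1851 probes were higher and 1818 lower, and 6 rises and 7 falls were among the glycolysis and pyruvate genes. The median over the glycolysis and pyruvate genes was -0.12 with median scaling, against -0.07. The median of X-linked genes, 0.12, was 0.07 with the authors' processed values, 0.11 with median scaling, 0.09 without background correction, 0.11 with an offset of 50 and 0.12 to 0.15 with 1 sample left out. *Pfkm* minus *Pfkp*, -0.03, was 0.28 with chromosome medians removed and -0.12 to 0.07 with 1 sample left out. *Pdha1* minus *Pdhb*, -0.02, was 0.01 with median scaling, 0.03 with the mean of a gene's probes and -0.08 to 0.10 with 1 sample left out. *Pdk1* minus *Pdk4*, *Eno2* minus *Eno3* and *Pgam1* minus *Pgam2* were 2.90, 1.01 and -0.47, but 1.60, 0.41 and -0.02 with the authors' processed values. The cause of these shifts was not tested.

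Same-numbered samples did not deviate together (correlations of deviations from the genotype means of -0.03, -0.06 and -0.12), so the numbers were not used as pairs. With the replicate number as a block in the fit, 663 probes were higher and 925 lower, and 3 rises and 5 falls were among the glycolysis and pyruvate genes. *Pfkl* (adjusted p = 0.0125) and *Arnt* (adjusted p = 0.0202) were not called in that fit. *Hk1*, *Pfkfb2*, *Pgam2*, *Eno3* and *Pdk4* had low signals. Their log2 fold changes of -1.12, -0.70, 0.73, -0.77 and -1.43 were -0.52, -0.39, 0.26, -0.33 and -0.60 with the authors' processed values. The part of low signal in these differences was not tested.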

Other observations

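Genes of the HIF pathway and genes of the response to hypoxia were read together as a further list. Of 35 listed genes of the HIF pathway and of genes known to be induced by hypoxia, 25 were measured, among them the glycolysis and pyruvate genes *Pdk1*, *Pfkfb4*, *Slc2a1* and *Slc2a3*, and 3 were higher and 2 lower in *Prdm14*-null cells. Of all measured genes 6.72% were higher and 8.41% lower, so nothing is read from these counts. The median log2 fold change was -0.06, against 0.02 for all measured genes. The part of HIF in these changes was not tested. Besides *Pdk1*, *Plod2*, a collagen lysyl hydroxylase gene, rose by 1.22 (standard error 0.12, adjusted p = 0.000155 from limma, and 0.51 with the authors' processed values). *Vegfa*, the angiogenic growth factor, had normalized log2 signals of 5.97, 5.84 and 6.46 in null cells, against 7.78, 7.84 and 7.83 in wild-type cells, and fell by 1.72 (adjusted p = 8.1e-05, and by 1.39 on its second probe, or a log2 fold change of -0.84 with the authors' processed values). *Car12*, a membrane carbonic anhydrase gene above background on 0 null and 3 wild-type arrays, was at least 1.82-fold lower (adjusted p = 2.17e-05, and a log2 fold change of -0.54 with the authors' processed values). *Arnt*, the partner subunit of HIF, gave 0.46 on its brightest probe (adjusted p = 0.00573), a call lost in each of the 6 fits with 1 sample left out (adjusted p up to 0.0235), and 0.12 and -0.31 on its other probes. *Hif1a* gave 0.35 (adjusted p = 0.0229) and *Slc2a1*, a target shared with the glycolysis genes, -0.31 (adjusted p = 0.0350).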
